A study of Mus musculus with 12 samples.

Results

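The lysosomal genes described here are 46 genes for enzymes, membrane proteins and proton pump subunits of the lysosome. They were listed by name as known lysosomal genes, with earlier results of these data known. Each of the 46 had a transcript cluster annotated with its symbol alone on the gene-level arrays, out of 16755 clusters in all, which covered 14847 genes. They fall into 11 proteases, 14 glycosidases and sulfatases, 3 lipid hydrolases, 3 soluble cofactors, 8 membrane proteins and 7 proton pump genes.

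Lysosomes are acidic compartments in which enzymes break down proteins, sugars and lipids taken up from outside or delivered from within the cell. A proton pump, the V-ATPase, acidifies the compartment, and membrane proteins line it and carry breakdown products and ions across. Microglia, the resident macrophages of the brain, depend on lysosomes to digest what they engulf, and many lysosomal genes are controlled together by the transcription factors TFEB, TFE3 and MITF, which bind the E-box sequence.

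Microglia came from mice aged 3 weeks, in 3 samples whose Lrrc33 genotype is given as Lrrc33+/+ (WT) and 3 given as Lrrc33-/- (hereafter KO-labelled). The gene, now named Nrros, encodes a protein that holds latent TGF-beta on the surface of myeloid cells. Cells were gated as CD45low CD11b+ CD39+ Ter119-, and RNA from each sample was read on 1 Affymetrix exon array with values on the log2 scale after RMA. The sources used here do not give the allele, the strain, the sex or the number of mice behind a sample, and p-values measure the spread between these samples. The number of arrays limits the precision.

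RNA of Nrros itself did not bear out the labels. Its difference, KO-labelled minus WT, was 0.05 (log2, SE 0.09, limma adjusted p = 0.76), although a probe outside the deleted part would check nothing. Single exon-level probesets of Nrros were not examined here. All directions below rest on the labels. RNA of the gated markers moved with the groups: Itgam (CD11b) was at 28.5% of the WT level (-1.81, SE 0.07), Entpd1 (CD39) was lower (-0.36, SE 0.07) and Ptprc (CD45) higher (0.46, SE 0.07). WT replicate 3 stood apart in sex-linked RNA, with Xist at 7.96 (log2) against 12.24 to 12.46 in the other 5 samples. Y-linked Eif2s3y was at 7.72 in WT replicate 3 against 3.06 to 3.15 in the other 5, so sex-linked RNA was not balanced between the groups. X-linked are 5 of the lysosomal genes (Gla, Ids, Lamp2, Atp6ap1 and Atp6ap2). Of these, Ids and Atp6ap1 passed the test described below, and both also passed without WT replicate 3. Marker RNA moved with the groups too. All 9 measured markers of homeostatic microglia were lower in KO-labelled samples, where their mean was 9.40 to 9.48 (log2) against 12.15 to 12.18 in WT. Of 12 markers of border-associated macrophages 11 were higher, with means of 11.19 to 11.28 against 8.88 to 8.99. Of 7 monocyte markers 4 were lower and 0 higher, with means of 5.24 to 5.80 in KO-labelled samples against 5.94 to 6.12, and Ccr2, Chil3, Vcan and F10 lay below the median of all values (6.72). Of 11 neutrophil markers 1 was lower and 0 higher, with means of 6.47 to 7.56 against 7.28 to 8.30. Among 6 astrocyte markers Slc1a3 was lower (-1.50, SE 0.12), and among 7 endothelial and mural markers Pecam1 (-1.43, SE 0.26) and Kdr (-0.75, SE 0.09) were lower. The means of those lists were 6.56 to 6.72 against 6.89 to 7.37 and 6.01 to 6.13 against 6.35 to 6.81. The part of these markers in the results below was not tested. In such bulk samples, fewer cells of a type and less RNA per cell cannot be told apart.

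The lysosomal genes changed in both directions. Because they were chosen with earlier results of these data known, their shares beside those of all clusters are a description and not a test. At the gene level 31 of the 46 passed limma's test (two-sided, Benjamini-Hochberg adjusted over all clusters, threshold 0.05), which is 67.4%, against 28.4% of all clusters. Of these, 21 were higher in KO-labelled samples (45.7%, against 14.4% of all clusters) and 10 were lower (21.7%, against 14.0%). The median difference over the 46 genes was 0.18 (log2), beside -0.02 over all clusters. Most differences were small: only Ctsc and Sgsh rose at least 2-fold and only Arsb, Ctsl and Ctsd fell at least 2-fold, together 10.9% of the genes against 5.11% of all clusters. The 3 values of each group did not overlap for 38 of the genes (82.6%), against 42.3% of all clusters. All but Atp6v0d2 reached the median of all clusters in at least 1 group mean. When dimmer clusters were left out, 53.3% of the remaining clusters passed, 27.0% higher and 26.2% lower. Of the 45 lysosomal genes kept there, 35 passed (77.8%), with 24 higher (53.3%) and 11 lower (24.4%). The shares of 5.11% and 42.3% given above include the dimmer clusters, and shares without them were not computed. The part of brightness in those 2 comparisons was thus not tested.

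**Figure D1:**
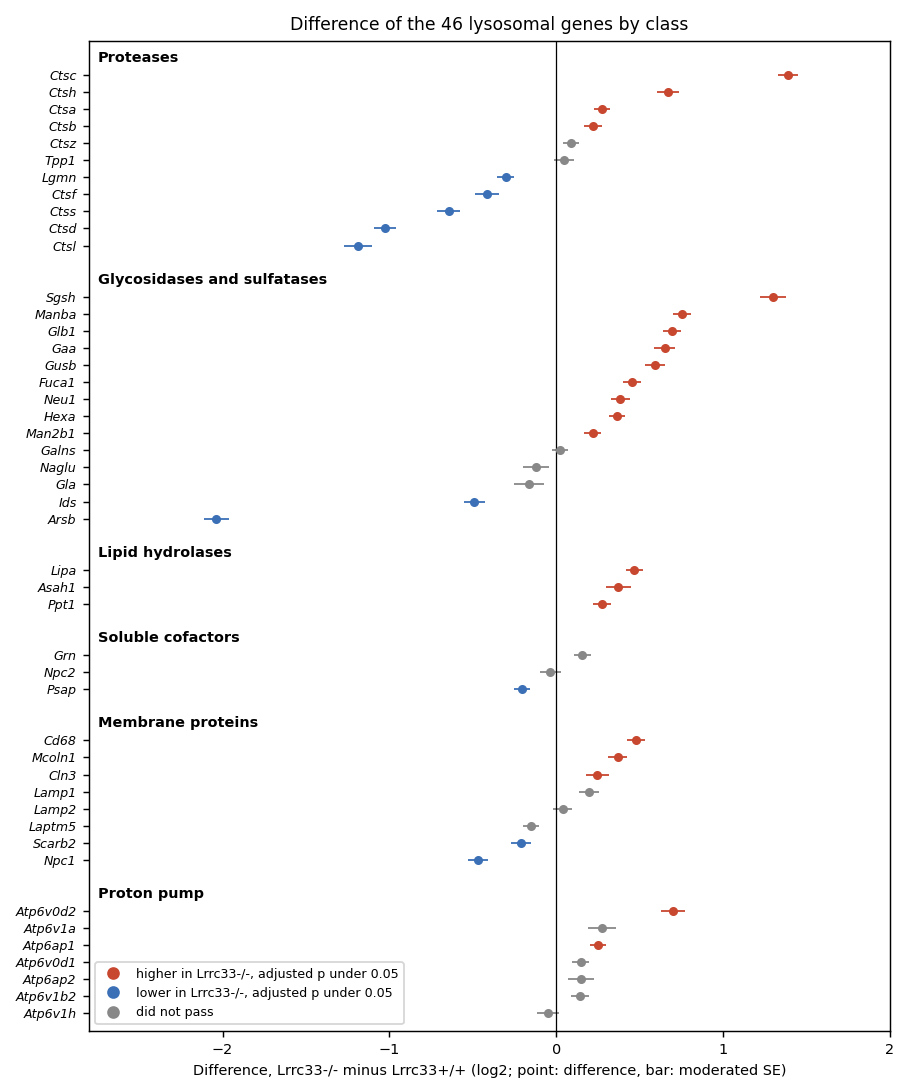
Difference of each of the 46 lysosomal genes between KO-labelled and WT samples (log2, horizontal axis), grouped by class, with points for the differences and bars for the moderated standard errors (0.05 to 0.09). Red genes were higher and blue genes lower past the threshold. Proteases lie on both sides of 0, from -1.19 for Ctsl to 1.39 for Ctsc, while 9 of 14 glycosidases and sulfatases lie to the right past the threshold and Arsb lies far to the left at -2.04.

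Promoter sequences are shown because the E-box is the element through which lysosomal genes are known to be controlled together. RefSeq promoters (GRCm38.p6, 250 bases before to 50 after each start) were found for 38 of the 46 genes. The letters CACGTG, the core of the E-box, stood on either strand in 15 of the 38 (39.5%), against 8.09% of 27025 genes. Its extended form GTCACGTG, which contains the core, stood in 11 (28.9%), against 2.55% of genes. GAGGAAGT, a PU.1 type motif that contains neither, stood in 4 (10.5%; Ctsc, Ctss, Gla and Gusb), against 3.69% of genes. The extended E-box of each of the 11 genes is given below 5′ to 3′ on the gene's strand, in capitals, with up to 10 bases on each side. Ctsa, Cln3, Ctsd and Mcoln1 hold a further match, which in Cln3 overlaps the printed one on the other strand.
Sgsh (chr11:119355522-119355549, - strand): gcctgccgtgCACGTGACcgtggggagc
Glb1 (chr9:114401018-114401045, + strand): ctgcttctgaGTCACGTGgcctacagag
Mcoln1 (chr8:3500436-3500463, + strand): ggtcgcgcttGTCACGTGttcagttcag
Ctsa (chr2:164833749-164833776, + strand): tgagcaaactGTCACGTGatgcagatgc
Cln3 (chr7:126583342-126583369, - strand): cacgggtactGTCACGTGacccccaacc
Ctsd (chr7:142388055-142388077, - strand): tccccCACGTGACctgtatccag
Lgmn (chr12:102439126-102439153, - strand): tggaatgtctGTCACGTGgtccatttta
Lamp1 (chr8:13159123-13159150, + strand): tgccgactggCACGTGACcacatcacgt
Atp6v0d1 (chr8:105566052-105566079, - strand): ccctactgcgGTCACGTGagacgcggtg
Gla (chrX:134601184-134601211, - strand): tgagatctcgGTCACGTGagcaactctc
Naglu (chr11:101070009-101070036, + strand): caaccttcagGTCACGTGgcccgaggtc

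A match to these letters is a description and not a binding site. Of the 11 genes with the extended E-box, 5 were higher in KO-labelled samples (Sgsh, Glb1, Mcoln1, Ctsa and Cln3), 2 were lower (Ctsd and Lgmn) and 4 did not pass (Lamp1, Atp6v0d1, Gla and Naglu). Their median difference was 0.20 (log2). Of the other 27 genes 12 were higher, 7 lower and 8 did not pass, with a median of 0.16. The Ctsc rise and the Arsb fall, the largest in each direction, belonged to genes without an E-box core in this window. The 250 bases before the start are printed for these genes and for Ctsd, which fell most among the genes with the extended E-box. Capitals mark GAGGAAGT in Ctsc, read on the other strand, and both extended E-boxes in Ctsd, while Arsb held none of the motifs.
Ctsc (chr7:88277835-88278084, + strand): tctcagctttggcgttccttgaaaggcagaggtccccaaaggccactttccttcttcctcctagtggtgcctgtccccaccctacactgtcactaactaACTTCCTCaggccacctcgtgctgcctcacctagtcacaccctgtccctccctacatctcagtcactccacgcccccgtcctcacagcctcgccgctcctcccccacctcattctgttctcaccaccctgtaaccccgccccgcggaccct
Arsb (chr13:93771429-93771678, + strand): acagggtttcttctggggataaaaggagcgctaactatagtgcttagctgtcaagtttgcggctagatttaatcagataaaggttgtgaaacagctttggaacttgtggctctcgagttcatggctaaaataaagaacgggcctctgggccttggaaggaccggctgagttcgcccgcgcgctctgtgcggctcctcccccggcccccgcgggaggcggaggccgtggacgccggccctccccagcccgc
Ctsd (chr7:142387828-142388077, - strand): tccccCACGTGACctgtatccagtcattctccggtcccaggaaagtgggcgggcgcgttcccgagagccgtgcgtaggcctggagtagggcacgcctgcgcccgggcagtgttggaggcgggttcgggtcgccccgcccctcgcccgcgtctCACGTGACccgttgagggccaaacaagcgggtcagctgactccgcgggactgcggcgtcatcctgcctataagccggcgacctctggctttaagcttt

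**Figure D2:**
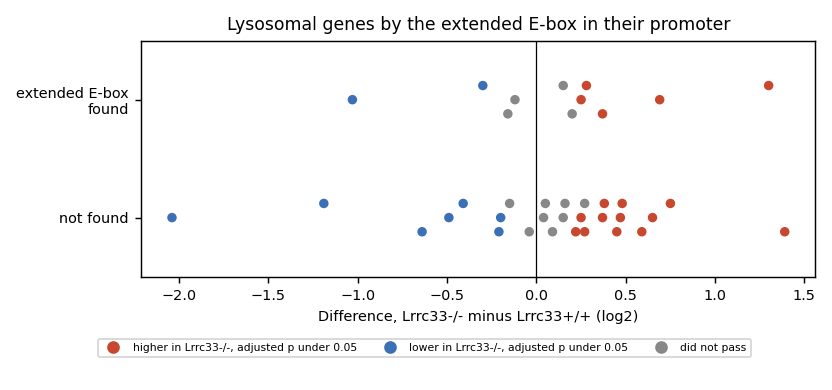
Difference of the 38 lysosomal genes with a RefSeq promoter (log2, KO-labelled minus WT, horizontal axis), 1 point per gene, with the 11 genes that hold GTCACGTG in the upper row and the 27 that do not in the lower row. Red and blue points passed the test. Both rows hold genes on each side of 0, with medians of 0.20 and 0.16.

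Among the 11 proteases, 4 were higher (Ctsc, Ctsh, Ctsa and Ctsb) and 5 were lower (Ctsl, Ctsd, Ctss, Ctsf and Lgmn), so that the median difference of the class was 0.05 (log2). These were 36.4% and 45.5%, against 14.4% and 14.0% of all clusters and 27.0% and 26.2% without dim clusters. Ctsc encodes the dipeptidyl peptidase that activates granule serine proteases. Its values were 10.99, 11.10 and 11.11 (log2) in WT and 12.51, 12.40 and 12.46 in KO-labelled samples. Every KO-labelled sample lay above every WT sample, a 2.62-fold rise of 1.39 (log2, SE 0.06, limma adjusted p = 6.8e-06). Ctsh, an aminopeptidase, stood at 10.39, 10.40 and 10.37 in WT and at 11.06, 10.95 and 11.17 in KO-labelled samples. It rose by 0.67 (SE 0.07, limma adjusted p = 0.00031), again without overlap.

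Ctsl and Ctsd, an endopeptidase of the papain family and the main aspartic protease of the lysosome, fell. Ctsl was 11.44, 11.40 and 11.52 in WT and 10.38, 10.32 and 10.09 in KO-labelled samples, a drop to 43.9% of the WT level (-1.19, SE 0.09, limma adjusted p = 6.9e-05). Ctsd was 13.23, 13.20 and 13.17 in WT and 12.27, 12.07 and 12.18 in KO-labelled samples. This was 49.1% of the WT level (-1.03, SE 0.06, limma adjusted p = 3.5e-05), and the groups were far apart for both genes. Ctss, a protease that stays active near neutral pH and trims the invariant chain of MHC class II, had WT values of 13.04, 13.04 and 12.97 and KO-labelled values of 12.35, 12.28 and 12.48. All KO-labelled samples lay below WT, at 64.0% of its level (-0.64, SE 0.07, limma adjusted p = 0.0004).

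The remaining proteases changed by less than 0.5 (log2). Ctsf, a further papain-type protease, fell by 0.41 (SE 0.07) and Lgmn, the asparaginyl endopeptidase that matures other cathepsins, fell by 0.30 (SE 0.05). Ctsa, a carboxypeptidase that also shields Neu1 and Glb1 from degradation, was higher by 0.28 (SE 0.05). Ctsb was higher by 0.22 (SE 0.05, limma adjusted p = 0.02), but it missed the threshold without WT replicate 1, WT replicate 2, KO replicate 1 or KO replicate 3 (adjusted p = 0.075, 0.075, 0.067 and 0.062). Tpp1, a tripeptidyl peptidase, was 11.57, 11.67 and 11.76 in WT and 11.72, 11.72 and 11.69 in KO-labelled samples. Those values overlapped, and neither Tpp1 (0.05, SE 0.06) nor the carboxypeptidase Ctsz (0.09, SE 0.05) passed.

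**Figure D3:**
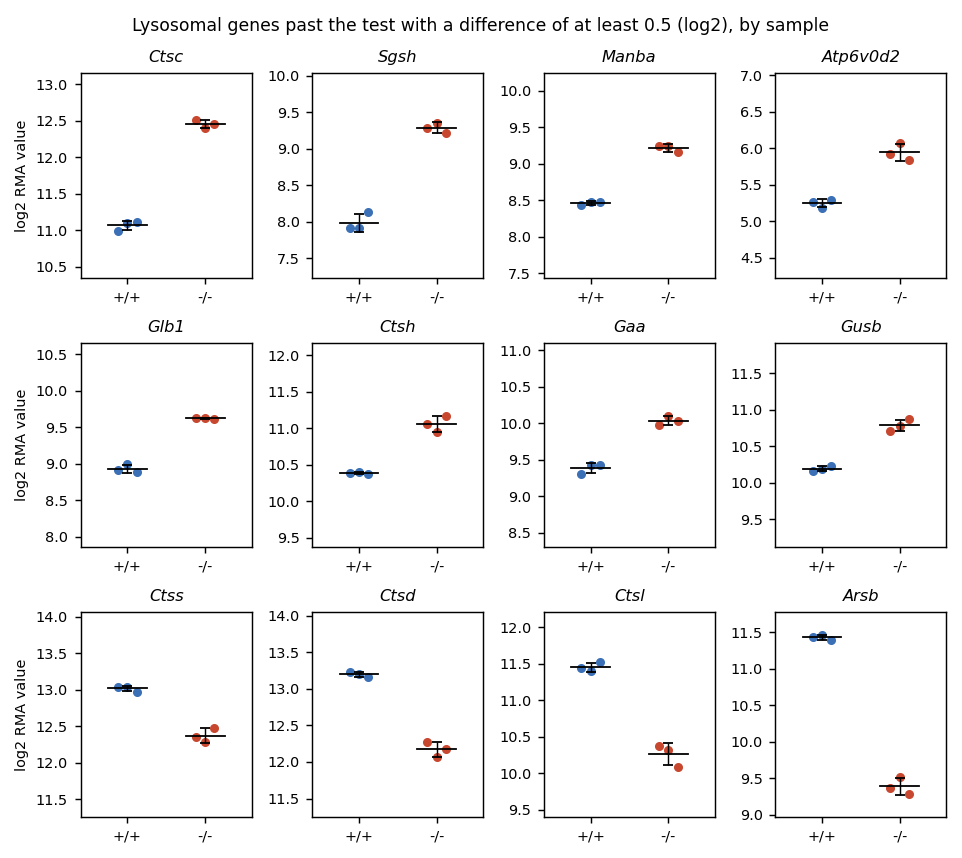
Values by sample (log2 after RMA, vertical axis) of the 12 lysosomal genes past the threshold with a difference of at least 0.5, with WT samples in blue and KO-labelled samples in red, lines for means and bars for SD (n = 3). Every panel spans the same number of log2 units at its own level, so heights within a panel compare samples of 1 gene only. The groups do not overlap in any panel, from 11.43 down to 9.39 on average for Arsb to 11.07 up to 12.46 for Ctsc.

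Glycosidases and sulfatases were higher in 9 of 14 genes, lower in 2 and not past the threshold in 3, with a class median of 0.37 (log2). Higher were 64.3% and lower 14.3%, against 14.4% and 14.0% of all clusters and 27.0% and 26.2% without dim clusters. Sgsh, the sulfamidase of heparan sulfate breakdown, rose most. It was 7.91, 7.92 and 8.13 in WT and 9.29, 9.36 and 9.21 in KO-labelled samples. The groups lay well apart, with a 2.46-fold rise (1.30, SE 0.08, limma adjusted p = 3e-05).

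Manba, the beta-mannosidase, was 8.43, 8.48 and 8.48 in WT and 9.25, 9.24 and 9.16 in KO-labelled samples (0.75, SE 0.05, limma adjusted p = 5.4e-05). Glb1, the beta-galactosidase that acts on gangliosides and keratan sulfate, was 8.91, 8.99 and 8.88 in WT and 9.62, 9.63 and 9.61 in KO-labelled samples (0.69, SE 0.05, limma adjusted p = 8.2e-05). Both genes were higher in every KO-labelled sample than in any WT sample. Gaa, which releases glucose from glycogen, was 9.30, 9.42 and 9.43 in WT and 9.97, 10.10 and 10.03 in KO-labelled samples (0.65, SE 0.06, limma adjusted p = 0.00029). Gusb, the beta-glucuronidase, was 10.16, 10.18 and 10.23 in WT and 10.71, 10.77 and 10.87 in KO-labelled samples (0.59, SE 0.06, limma adjusted p = 0.00036). For Gaa and Gusb, too, no values overlapped.

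Smaller rises were seen for the fucosidase Fuca1 (0.45, SE 0.05), the sialidase Neu1 (0.38, SE 0.06), the beta-hexosaminidase alpha subunit Hexa (0.37, SE 0.05) and the alpha-mannosidase Man2b1 (0.22, SE 0.05). Man2b1 (limma adjusted p = 0.021) missed the threshold without WT replicate 1, WT replicate 3, KO replicate 1 or KO replicate 3 (adjusted p = 0.056, 0.065, 0.064 and 0.06). The other 3 rises held in each fit that left out 1 sample.

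Arsb, the sulfatase that removes sulfate from dermatan sulfate and chondroitin sulfate, had the largest fall of the 46 genes. Its values were 11.43, 11.47 and 11.39 in WT and 9.37, 9.52 and 9.28 in KO-labelled samples, which is 24.4% of the WT level, a 4.10-fold difference (-2.04, SE 0.07, limma adjusted p = 2.9e-06). The lowest WT sample and the highest KO-labelled sample were far apart. A second cluster of the gene fell from a mean of 10.31 to 7.78 (-2.53, SE 0.08, limma adjusted p = 1.6e-06). The iduronate sulfatase Ids fell by 0.49 (SE 0.06, limma adjusted p = 0.00098). Galns, the sulfatase of keratan sulfate and chondroitin sulfate, was 8.23, 8.27 and 8.21 in WT and 8.24, 8.30 and 8.24 in KO-labelled samples. Its groups overlapped (0.02, SE 0.05, limma adjusted p = 0.79). Neither the alpha-galactosidase Gla (-0.16, SE 0.09) nor Naglu (-0.12, SE 0.08), which trims N-acetylglucosamine from heparan sulfate, passed at the gene level.

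All 3 lipid hydrolases were higher, against 14.4% of all clusters and 27.0% without dim clusters. Lipa, the acid lipase that frees cholesterol from its esters, rose by 0.47 (SE 0.05), and Asah1, the acid ceramidase, by 0.37 (SE 0.08). Ppt1, which removes palmitate from proteins, was 10.49, 10.55 and 10.53 in WT and 10.82, 10.72 and 10.84 in KO-labelled samples. Its groups did not overlap (0.27, SE 0.06, limma adjusted p = 0.0094), while a dimmer second cluster did not pass (0.09, SE 0.16, adjusted p = 0.76).

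Of the 3 soluble cofactors only Psap passed (33.3%, close to the 28.4% of all clusters), with a class median of -0.04. Psap, the precursor of the saposins that present sphingolipids to their enzymes, was lower by a small margin (-0.20, SE 0.05, limma adjusted p = 0.017). It missed the threshold without WT replicate 1, WT replicate 2 or KO replicate 1 (adjusted p = 0.062, 0.061 and 0.059), and after a second quantile normalization, where the difference was -0.08 (adjusted p = 0.27). Npc2, the soluble cholesterol carrier, was 10.95, 10.96 and 10.92 in WT and 10.86, 10.84 and 11.02 in KO-labelled samples. KO replicate 3 lay above all WT samples and the other KO-labelled samples below them (-0.04, SE 0.06, limma adjusted p = 0.76). Grn, the progranulin gene, stood at 0.16 (SE 0.05, adjusted p = 0.061). It passed after a second quantile normalization (0.24, adjusted p = 0.016), with trended robust variance (adjusted p = 0.026), with array weights (0.041) and without dim clusters (0.027).

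Of 8 membrane proteins 3 were higher (Cd68, Mcoln1 and Cln3) and 2 lower (Npc1 and Scarb2), with a median of 0.12. In all 62.5% passed, against 28.4% of all clusters and near the 53.3% without dim clusters. Cd68, a heavily glycosylated protein of macrophage lysosomes, rose by 0.48 (SE 0.06, limma adjusted p = 0.00068). The cation channel gene Mcoln1 rose by 0.37 (SE 0.06). Npc1, the membrane partner of Npc2 in cholesterol export, fell by 0.47 (SE 0.06, limma adjusted p = 0.0012). The changes of Cln3, the gene of juvenile Batten disease, and Scarb2, a receptor that carries enzyme to the lysosome, were lost when most single samples were left out. Cln3 (0.25, SE 0.07, limma adjusted p = 0.033) passed only without KO replicate 3 (adjusted p = 0.019) and otherwise had adjusted p = 0.064 to 0.093 when 1 sample was left out. Scarb2 (-0.21, SE 0.06, limma adjusted p = 0.037) passed only without KO replicate 1 (adjusted p = 0.047), with 0.054 to 0.12 otherwise.

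Lamp1 and Lamp2, known as abundant glycoproteins of the lysosomal membrane, did not pass. Lamp2 was 11.51, 11.54 and 11.64 in WT and 11.62, 11.55 and 11.63 in KO-labelled samples, with overlapping groups (0.04, SE 0.06). Lamp1 stood at 0.20 (SE 0.06, limma adjusted p = 0.053) and passed without WT replicate 3 (0.24, adjusted p = 0.032). It also passed after a second quantile normalization (0.21, adjusted p = 0.03), with trended robust variance (adjusted p = 0.03), with array weights (0.035) and without dim clusters (0.024). Laptm5, which is restricted to blood-lineage cells, stood at -0.15 (SE 0.05, adjusted p = 0.063). After a second quantile normalization it was -0.33 (adjusted p = 0.002), and it passed with trended robust variance (adjusted p = 0.024), with array weights (0.039) and without dim clusters (0.028).

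The proton pump has a membrane sector, V0, and a catalytic sector, V1. Of its 7 genes 2 were higher, 0 lower and 5 did not pass, with a median of 0.15, a share (28.6%) close to that of all clusters. The paralogs of the V0 d subunit differed. Atp6v0d1, the widely expressed form, was 10.12, 10.07 and 10.09 in WT and 10.22, 10.22 and 10.28 in KO-labelled samples. All KO-labelled values were above WT, but the difference did not pass (0.15, SE 0.05, limma adjusted p = 0.069). It passed after a second quantile normalization (adjusted p = 0.033), with trended robust variance (0.035) and without dim clusters (0.031). Atp6v0d2, known from osteoclasts and some macrophages, was 5.26, 5.18 and 5.29 in WT and 5.92, 6.07 and 5.83 in KO-labelled samples. It passed without overlap (0.70, SE 0.07, limma adjusted p = 0.00043), yet every value lay below the median of all values (6.72), where differences after RMA can come out too small. The difference between the paralogs' changes was not tested.

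Atp6ap1, an accessory subunit, was higher by 0.25 (SE 0.05, limma adjusted p = 0.0066), and Atp6ap2, the other accessory subunit, stood at 0.15 (SE 0.08). Among V1 subunits, catalytic Atp6v1a stood at 0.27 (SE 0.09, adjusted p = 0.053) and passed without KO replicate 3 (0.33, adjusted p = 0.043). It also passed after a second quantile normalization (0.30, adjusted p = 0.036), with trended robust variance (adjusted p = 0.039), with array weights (0.046) and without dim clusters (0.026). Atp6v1b2 stood at 0.14 (SE 0.05). The regulatory subunit gene Atp6v1h was 8.02, 8.01 and 8.14 in WT and 8.11, 7.98 and 7.94 in KO-labelled samples, with overlap (-0.05, SE 0.07).

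The exon-level table gives values for single probesets, 8 to 38 per lysosomal gene, from the same 6 arrays and so not as independent evidence. With each gene taken as the median of its probesets, 22 of the 46 passed limma's test (47.8%), against 15.9% of 22184 genes. Of these 13 were higher (8.38% of all genes were) and 9 lower (7.53% of all genes). All 31 genes called at the gene level kept their sign, and 20 of them passed again. Gla (-0.39, limma adjusted p = 0.026) and Naglu (-0.35, adjusted p = 0.046) passed only here.

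Probesets of 1 gene did not always move together. limma's diffSplice, an F test for unequal differences among the probesets of a gene, passed for 23 of the 46 genes, against 31.6% of 16692 genes. Over all probesets of the exon level, 4.75% passed limma's test one by one. Ctsl was even, with 12 of 13 probesets lower past the threshold and differences from -1.41 to -0.95 (diffSplice adjusted p = 0.48). Hexa was even too, from 0.24 to 0.41 over 16 probesets (diffSplice adjusted p = 1.0), although none of them passed alone. Ctsc and Ctsd were uneven in size though not in direction. In Ctsc 16 of 17 probesets were higher past the threshold, with differences from 0.51 to 1.83 (diffSplice adjusted p = 6.4e-10). In Ctsd 11 of 13 were lower past it, with differences from -1.36 to -0.16 (diffSplice adjusted p = 1.5e-10). Where the probesets lie in the genes was not analysed here.

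Arsb and Asah1 had the lowest diffSplice p of the 46 genes. In Arsb 19 of 21 probesets were lower past the threshold, with unequal differences (diffSplice adjusted p = 6.1e-25). The largest fall, -3.22, ran from 8.36 to 5.13, which is below the median of all exon-level values (5.82). The other 2 probesets went from 8.25 to 7.96 (-0.29, SE 0.20) and from 6.42 to 6.69 (0.27, SE 0.21). The part of dim signal in this was not tested. In Asah1 all 23 probesets were higher in the mean but 4 alone passed. Probeset 4949563 rose from 6.76 to 8.62 (1.86, SE 0.19), probeset 4869762 from 6.68 to 8.37 (1.69, SE 0.16) and probeset 4623996 from 6.54 to 7.74 (1.20, SE 0.16), against 0.37 for the gene (diffSplice adjusted p = 3.5e-21).

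Uneven probesets were also found in genes that did not pass as a whole, 3 of which were picked after their values were seen. Beside them, 4.75% of all probesets passed alone and 31.6% of tested genes passed diffSplice. In Npc2 1 of 12 probesets was lower past the threshold, from 7.91 to 6.96 (-0.95, SE 0.16; diffSplice adjusted p = 3.8e-06). In Laptm5 1 of 19 fell from 10.05 to 8.99 (-1.06, SE 0.16; diffSplice adjusted p = 7.9e-06). Differences in Atp6v1h ran from -1.01 to 0.32 among its 22 brighter probesets (diffSplice adjusted p = 3.9e-05), with none past the threshold alone.

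**Figure D4:**
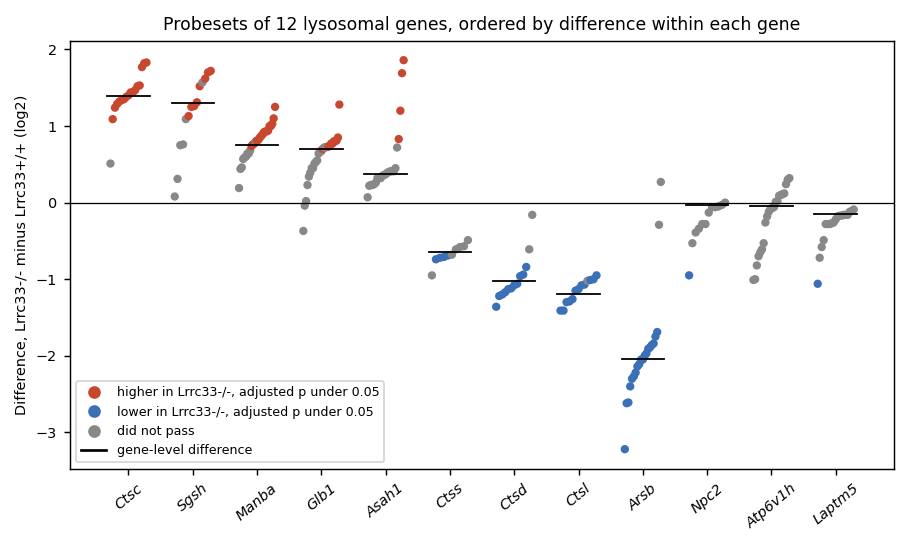
Difference of each probeset used in diffSplice (log2, KO-labelled minus WT, vertical axis) in 12 lysosomal genes, 1 point per probeset, ordered by size within a gene, with black lines for the gene-level difference. Red and blue points passed limma's test over all probesets. Ctsl probesets lie close together between -1.41 and -0.95, while 3 Asah1 probesets reach 1.20 to 1.86 above a gene-level line at 0.37.

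Other genes of the lysosome were described by list, beside the 14.4% of all clusters that were higher and the 14.0% that were lower. These lists, too, were chosen with earlier results of these data known. Of 28 other hydrolases 14 were higher (50%) and 2 lower (7.14%), with a median of 0.28 (log2). Plbd1, a phospholipase B-like protein, rose by 2.73 (SE 0.14, limma adjusted p = 1.3e-05), Galc, the galactosylceramidase that digests myelin lipid, by 2.01 (SE 0.10, adjusted p = 1.1e-05), and Acp5, the tartrate-resistant acid phosphatase, by 1.79 (SE 0.10, adjusted p = 2.1e-05). These rises exceeded that of every gene among the 46. Arsg, a sulfatase of heparan sulfate, fell by 1.82 (SE 0.09, adjusted p = 1.2e-05). Ctsk (0.01, SE 0.08) and Prcp (0.03, SE 0.05) did not pass.

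Among 17 other proton pump subunits 2 were higher (11.8%) and 4 lower (23.5%), with a median of -0.04. In all 35.3% passed, near the 28.4% of all clusters. Values of 3 of the 17 were exon-derived, and there 15.9% of all genes passed. One of the higher calls, Atp6v0e (0.29, SE 0.06), singled out after its values were seen like Atp6v0a4 below, missed the threshold without WT replicate 2 (adjusted p = 0.056) and stood at -0.17 in exon-derived values (adjusted p = 0.41). The isoforms of the V0 a subunit, which differ in where they are placed in the cell, differed in direction: Atp6v0a2 fell by 1.72 (SE 0.07, limma adjusted p = 6.1e-06), Tcirg1, which encodes the a3 isoform, fell by 0.54 (SE 0.07, adjusted p = 0.0011), and Atp6v0a1 rose by 0.63 (SE 0.09, adjusted p = 0.0023). The V1 subunit gene Atp6v1c1 fell by 0.56 (SE 0.08, adjusted p = 0.0017). The remaining a isoform gene, Atp6v0a4, did not pass in its exon-derived values (-0.11, SE 0.14). Atp6v1g3 (0.01, SE 0.09) and Atp6v1e1 (SE 0.06, adjusted p = 1.0) did not pass.

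Of 27 other membrane proteins 10 were higher (37.0%, against 14.4% of all clusters) and 4 lower (14.8%, close to the 14.0% of all clusters), with a median of 0.02. Hgsnat, the acetyltransferase of heparan sulfate breakdown, rose by 1.34 (SE 0.07, limma adjusted p = 1.8e-05), and Tpcn2, a cation channel gene, by 1.20 (SE 0.07, adjusted p = 3.1e-05). The tetraspanin gene Cd63 rose by 0.85 in its exon-derived values (SE 0.09, adjusted p = 0.00057), and Slc15a4, a peptide and histidine transporter, fell by 0.73 (SE 0.07, adjusted p = 0.00023). Lamp3 (0.01, SE 0.06) and Lamp5 (-0.02, SE 0.06) did not pass.

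Of 7 genes listed as protease inhibitors 2 were higher and 2 lower (28.6% each, against 14.4% and 14.0% of all clusters), with a median of -0.09. Cst3 and Cst7, cystatins that block papain-type proteases, fell by 0.91 (SE 0.06, limma adjusted p = 3.8e-05) and, in exon-derived values, by 1.69 (SE 0.15, adjusted p = 0.00025). Serpinb6a rose by 2.36 at the gene level (SE 0.16, adjusted p = 4.9e-05) and by 1.22 in exon-derived values, and its paralog Serpinb6b rose by 0.48 (SE 0.10, adjusted p = 0.012). Serpins inhibit mainly serine proteases, and near-identical copies could share probes. Cstb (0.15, SE 0.06) and Cst6 (-0.09, SE 0.08) did not pass.

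Of 21 genes for transport to the lysosome 7 were higher (33.3%, against 14.4% of all clusters) and 4 lower (19.0%, against 14.0%), with a median of 0.09. Values of 3 of the 21 were exon-derived, and there 15.9% of all genes passed. Sort1, a receptor that sorts enzymes to lysosomes, fell by 1.51 in exon-derived values (SE 0.10, limma adjusted p = 6.4e-05), and Lyst, the gene of Chediak-Higashi syndrome, fell by 0.97 (SE 0.06, adjusted p = 3.5e-05). In the tethering complexes of late endosomes, Vps41 rose by 0.92 (SE 0.05, adjusted p = 2.7e-05) and Vps18 fell by 0.81 (SE 0.06, adjusted p = 9.4e-05). Rab7 (-0.04, SE 0.09) and Nagpa (0.07, SE 0.06) did not pass.

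Of 19 regulators and nutrient-sensing genes 3 were higher and 3 lower (15.8% each, close to the 14.4% and 14.0% of all clusters), with a median of -0.07. Of the 19, 6 were taken from exon-derived values, where 15.9% of all genes passed. Tfec, a relative of TFEB in macrophages, rose by 2.24 (SE 0.15, limma adjusted p = 4.5e-05). Rraga, a GTPase that recruits mTORC1 to lysosomes, rose by 1.49 (SE 0.10, adjusted p = 4.5e-05) and by 0.77 in exon-derived values, and Rptor, the mTORC1 scaffold, fell by 0.64 (SE 0.06, adjusted p = 0.00017). Ppargc1a, a dim gene for a metabolic coactivator, fell by 0.47 (SE 0.14, adjusted p = 0.04) and passed again only without WT replicate 1 when 1 sample was left out. Flcn (0.02, SE 0.08) and Zkscan3 (0.04, SE 0.11) did not pass. Chosen after their values were seen, Tfeb (-0.22, SE 0.07), Tfe3 (-0.16, SE 0.06) and Mitf (0.04, SE 0.07) did not pass either (adjusted p = 0.068, 0.09 and 0.71). With array weights or without dim clusters, the list had 5 lower calls.

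**Figure D5:**
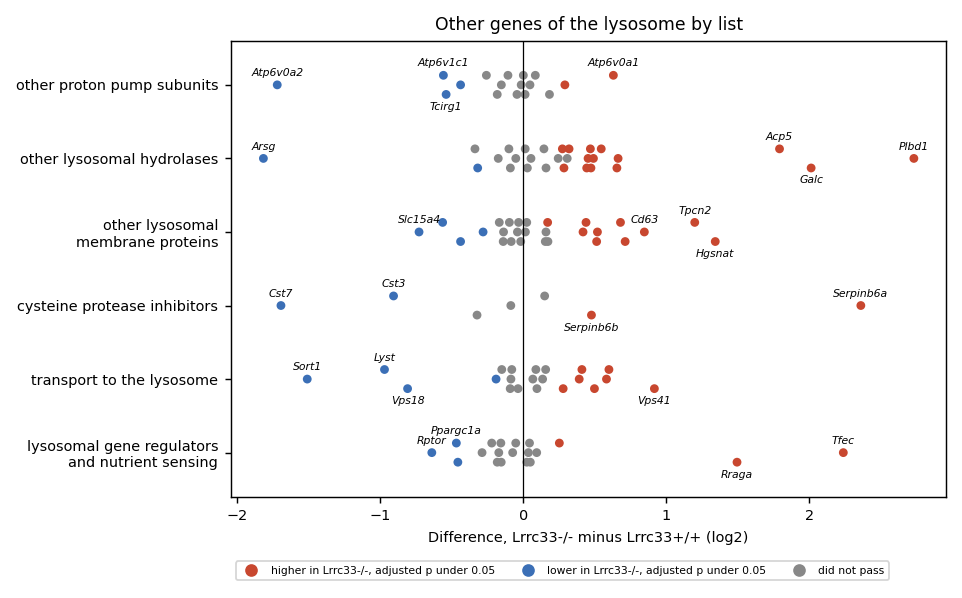
Difference of each gene in 6 wider lists of lysosomal genes (log2, KO-labelled minus WT, horizontal axis), 1 point per gene, with red and blue points past the threshold. The named genes reach from -1.82 for Arsg to 2.73 for Plbd1, and each list holds genes on both sides of 0.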

How the data were processed

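RNA of sorted microglia was measured on Affymetrix mouse exon arrays in 3 WT and 3 KO-labelled samples, grouped by their labels. The deposited values are on the log2 scale and were made by the authors with RMA, per the submitters' processing notes, which also name oligo and limma for the exon level, with no version or role. RMA corrects background and normalizes arrays, and differences of dim genes can come out too small, which was not tested here. The same 6 arrays appear as 16755 transcript clusters and as 1236087 probesets. Array medians were 6.70 to 6.76 (log2) and 5.82 to 5.84. The sources used here do not give the genome build or array annotation.

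Symbols were those of the platform annotation after an update through RefSeq (GRCm38.p6). At the gene level 14996 clusters had 1 symbol, 1019 several and 740 none. At the exon level 320193 probesets had 1 matched symbol and 898 an unmatched one, 7796 had several and 907200 none. A gene with several clusters took the one with the highest mean. Genes with no gene-level row of their own took the median of their probesets (exon-derived values).

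Differences (KO-labelled minus WT) were tested with limma 3.58.1 in R 4.3.3 (lmFit and eBayes, Benjamini-Hochberg over all features), and probesets with diffSplice in genes with at least 3 probesets at or above the median. Both were tested on simulated data. No count of reads exists for arrays. The members and lists were chosen with earlier results of these data known. Named were all 46 genes, values by sample for those past the threshold with a difference of at least 0.5, for the V0 d paralogs and for the smallest difference of each class, and from each wider list up to 4 genes past the threshold with the largest and up to 2 others with the smallest difference. A planned comparison of protein sequences was not run. Alternatives were leaving out each sample, a replicate block, a second quantile normalization, trended robust variance, array weights, leaving out dim clusters, exon-derived values and means over clusters.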

Additional observations from a re-analysis of the deposited data

How the results depend on the processing

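Over all alternatives, 489 of the 46 genes' recomputed differences kept direction and side of the threshold, 38 (in 11 genes) lost it, 24 (in 7 genes) gained it and 2 turned sign without passing. Without 1 sample, 18 to 20 of the 46 genes were higher and 8 to 9 lower, and 26 of the 31 calls passed in each of the 6 fits. The exceptions were Ctsb, Man2b1, Psap, Scarb2 and Cln3. Samples with the same replicate number did not deviate together (r = -0.029, -0.007 and 0.039 across clusters), and with the replicate number as a block 20 genes were higher and 8 lower.

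Exon-derived values moved the higher calls to 13 in all, to 1 lipid hydrolase, 1 membrane protein, 1 proton pump gene, 1 other pump subunit and 1 protease inhibitor, and moved the lower calls to 4 glycosidases and sulfatases, 0 soluble cofactors and 1 membrane protein. Soluble cofactors had 1 higher call (Grn) under a second quantile normalization, trended robust variance, array weights or without dim clusters. They had 0 lower calls under the second quantile normalization or the replicate block, and 0 to 1 without 1 sample. Lamp1 and Laptm5 passed under the same 4 alternatives as Grn. Lower membrane proteins were 1 under the block and 1 to 2 without 1 sample. Higher proton pump genes were 4 under the second quantile normalization or trended robust variance. Other pump subunits had 1 to 2 higher calls without 1 sample, protease inhibitors 1 without dim clusters, and regulators 5 lower calls with array weights or without dim clusters. The cause was not tested. Atp6v0d2 and other dim genes have no value without dim clusters.

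Among the 46 genes and the genes named by the rule, sign turned only where the gene did not pass. Of the other called genes in the wider lists, Atp6v0e turned to -0.17 in exon-derived values. In the fits without 1 sample values ran from -0.00041 to 0.093 for Tpp1, -0.039 to 0.026 for Atp6v1e1, -0.085 to 0.083 for Atp6v1g3, -0.069 to 0.077 for Ctsk, -0.002 to 0.051 for Prcp, -0.02 to 0.038 for Lamp3, -0.053 to 0.029 for Lamp5, -0.068 to 0.005 for Rab7, -0.016 to 0.102 for Flcn and -0.042 to 0.089 for Zkscan3. A second quantile normalization gave 0.02 for Npc2, 0.04 for Atp6v1e1 and 0.004 for Lamp5, exon-derived values gave 0.071 for Atp6v1e1, -0.112 for Lamp3, 0.092 for Lamp5, -0.013 for Nagpa and -0.128 for Flcn, and array weights gave -0.035 for Atp6v1g3. The second normalization moved the median of all clusters from -0.019 to -0.011, and the share of higher calls among all calls from 50.9% to 49.9%.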

Other observations

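In a grouping by substrate made after the values were seen, enzymes for heparan sulfate went in both directions. So did those for dermatan sulfate and chondroitin sulfate. Of 7 measured genes for heparan sulfate, Hgsnat (1.34, SE 0.07), Sgsh (1.30, SE 0.08), Gusb (0.59, SE 0.06) and Idua (0.54, SE 0.06) were higher, Arsg (-1.82, SE 0.09) and Ids (-0.49, SE 0.06) were lower, and Naglu (-0.12, SE 0.08) did not pass. Of 7 for dermatan sulfate and chondroitin sulfate 3 were higher (Gusb, Idua and Hexa), 2 were lower (Arsb and Ids), and Galns and the hyaluronidase Hyal1 did not pass. Of 9 for glycosphingolipids 6 were higher, led by Galc (2.01, SE 0.10) and Glb1 (0.69, SE 0.05), 1 was lower (Psap), and Gla and Smpd1 did not pass. Psap is a cofactor gene, and its call was lost in alternatives given above. No enzyme of that list was called lower at the gene level. These values are log2 differences, KO-labelled minus WT, by limma with adjustment over all clusters. Some genes stand under more than 1 substrate. Over all clusters 14.4% were higher and 14.0% lower, and without dim clusters 27.0% and 26.2%. The counts by substrate are a description and not a test.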
